A study of Eohaustorius estuarius with 16 samples.

Results

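Among 8507 contigs measured on an oligonucleotide array of the amphipod Eohaustorius estuarius, 41 had much higher values in animals kept in sediment with cyfluthrin than in controls. These 41 contigs were chosen by the measured values themselves. In the authors' log2 value table the mean of the exposed samples had to exceed the control mean by at least 2, every exposed value had to lie above the control median, and every control value below the exposed median. In addition the probe had to be well above background, a flag of the scanner software, on at least 8 of the 16 arrays, which 6852 contigs were. A difference of at least 2 was reached by 53 of these contigs (0.773%), and 12 of them failed the conditions on single samples. The difference between exposed and control samples is therefore a description of the chosen contigs and not a finding about them, and no test of it is given for any of them. A further 3 contigs (contig_2512, contig_3155 and contig_5370, named after their values were seen) met the conditions on the values but were too often near background.

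Eohaustorius estuarius burrows in estuarine sand and is used in sediment toxicity tests. Whole bodies were taken after 10 days in sediment spiked with cyfluthrin at a nominal 1.6 µg/kg or, for the controls, with the solvent alone. Laboratory F extracted the RNA and hybridised 8 control and 8 cyfluthrin samples, labelled with Cy3, to 1 array each. The labels give no age, sex or number of animals per sample and are silent on whether the samples were kept in separate containers, so every spread reported here is that between these samples and may be technical in part.

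Cyfluthrin is a pyrethroid, a class of insecticides that keep voltage-gated sodium channels in nerve membranes open and so cause repetitive firing and paralysis. Arthropods break pyrethroids down mainly with esterases and cytochrome P450 enzymes. A contig is a stretch of transcript assembled from overlapping reads, and 1 gene can be split over several contigs. The files used here give neither a gene name nor a sequence for any contig, so the contigs are called by number, and whether some of them are pieces of 1 transcript was not analysed here.

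Cyfluthrin replicates 5 and 6 were nearly identical. The median squared difference between their arrays was 0.871 times what the scanner's error estimate allows, against 3.32 times for the next most similar arrays. Their log2 values were averaged and counted as 1 sample, which left 8 control and 7 cyfluthrin samples. The arrays lay on 2 slides, each with 4 arrays of either group. The columns of the slides were not balanced in this way, and column 3 held only cyfluthrin arrays. Group and column can therefore not be fully told apart. Between 67.6% and 89.4% of all contigs were well above background on an array. Before scaling, the 75th percentile of the signal, in log2 units, was 7.04 ± 0.445 in the control samples (SD, n = 8). In the cyfluthrin samples it was 7.74 ± 0.218 (SD, n = 7).

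Levels below are log2 of a contig's processed signal over the 75th percentile of its array, so that 0 is the signal of a fairly bright spot and 1 unit is a doubling. On this scale the 41 contigs were higher with cyfluthrin by a median of 3.19, or 9.15-fold, against a median change of -0.16 over the 6852 tested contigs. The changes ran from 1.64 (3.12-fold) to 4.27 (19.2-fold), and 24 contigs were at least 8-fold higher. The groups did not overlap in 20 of the 41, while among all tested contigs 93 (1.36%) were higher with cyfluthrin without overlap. In the limma fit over all tested contigs with Benjamini-Hochberg adjustment, 2052 (29.9%) changed at an adjusted p below 0.05, of which 510 (7.44% of those tested) were higher.

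**Figure D1:**
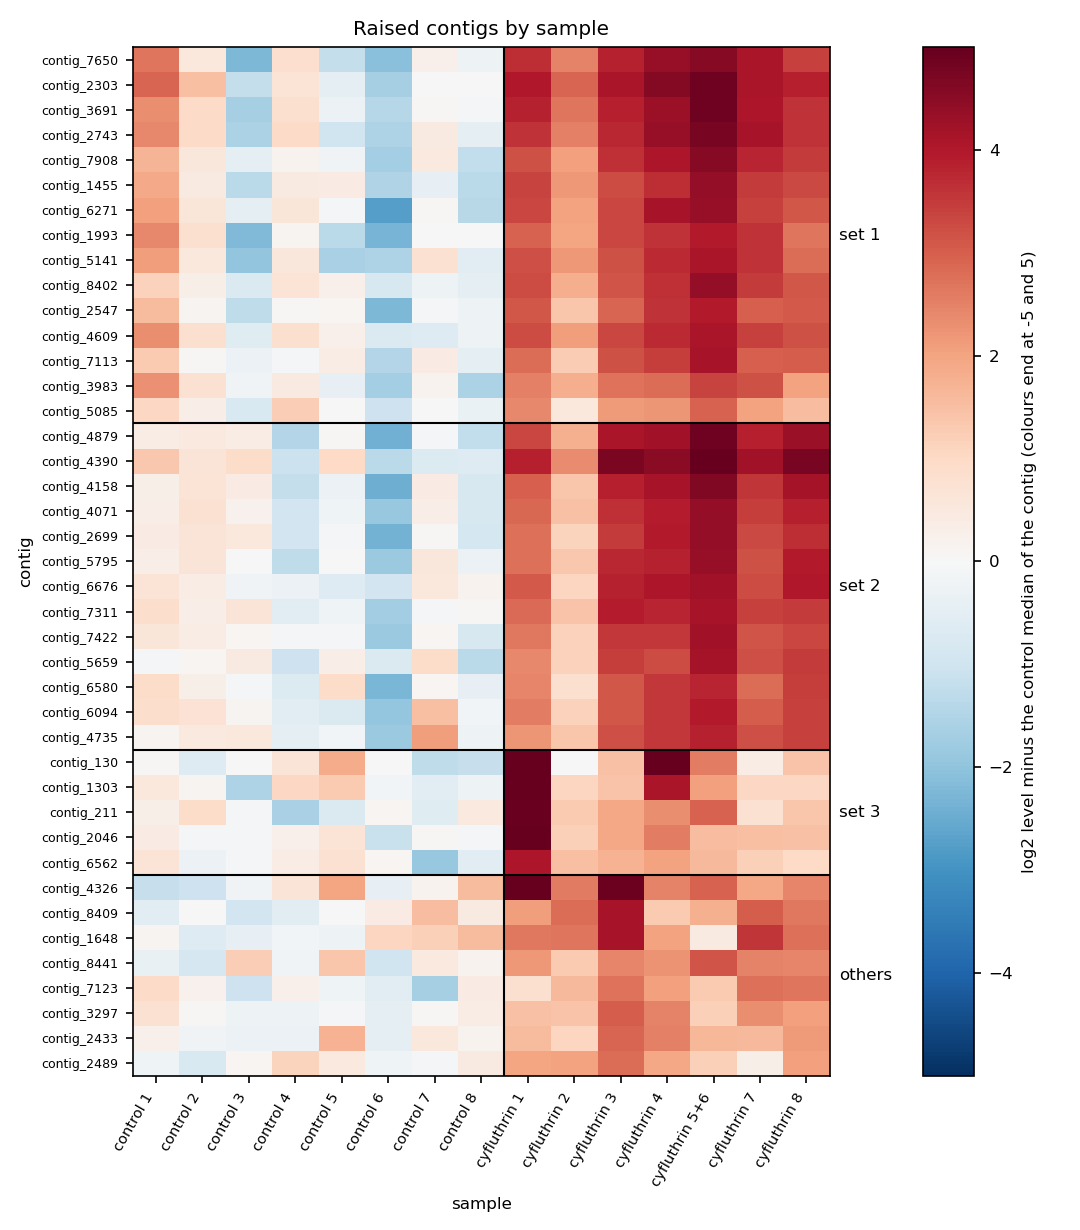
Level of each of the 41 raised contigs (rows) in each sample (columns, 8 control and 7 cyfluthrin, with cyfluthrin replicates 5 and 6 averaged), as log2 level minus the median of the controls for that contig. Black lines part the groups and the sets of contigs that vary together. Within sets 1 and 2 the columns of control 6 and cyfluthrin 2 are paler or bluer than most of their group. In set 1 control 3 is low as well (median -1.18, against -1.55 in control 6), and in set 3 cyfluthrin 1 stands out.

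The contig with the widest difference in the value table, 4.56, was contig_4390. Its control levels had a lowest value of -6.12, a median of -4.78 and a highest of -3.43, and its cyfluthrin levels ran from -2.43 over a median of -0.26 to 0.55. The groups were 0.998 units apart at their nearest values, and the means differed by 4.23 ± 0.482 (SE), or 18.8-fold. In 4 of the 8 controls it was not well above background. A similar picture was seen for contig_4879, whose control levels lay between -4.82 and -1.92 with a median of -2.41, and its cyfluthrin levels between -0.62 and 2.47 with a median of 1.67. Its change of 4.27 ± 0.496 (SE), or 19.2-fold, was the largest of all 41 on this scale. In contig_4158, well above background on every array, control levels ran from -3.37 over a median of -0.95 to -0.28 and cyfluthrin levels from 0.45 over 2.95 to 3.68. This was a 14.99-fold change (3.91 ± 0.509, SE). In these 3 contigs cyfluthrin replicate 2 was the lowest exposed sample and control replicate 6 the lowest control.

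The contigs contig_7650, contig_2743 and contig_2303 changed by nearly as much but had wide control groups. For contig_7650 the controls ran from -4.88 over a median of -2.64 to 0.045, and the exposed samples from -0.14 over 1.21 to 1.93, so that the highest control reached into the exposed range. The highest control was replicate 1 in all 3 contigs. Control levels of contig_2743 lay between -4.15 and -0.14 (median -2.56) and exposed levels between -0.050 and 2.20 (median 1.19). For contig_2303 they lay between -3.78 and 0.78 (median -2.13) and between 0.79 and 2.73 (median 1.94), which left a gap of 0.0094 units between the groups. The changes were 15.6-fold, 13.9-fold and 14.2-fold. The SD over controls was 1.64, 1.41 and 1.47 in these contigs and that over cyfluthrin samples 0.689, 0.716 and 0.611.

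**Figure D2:**
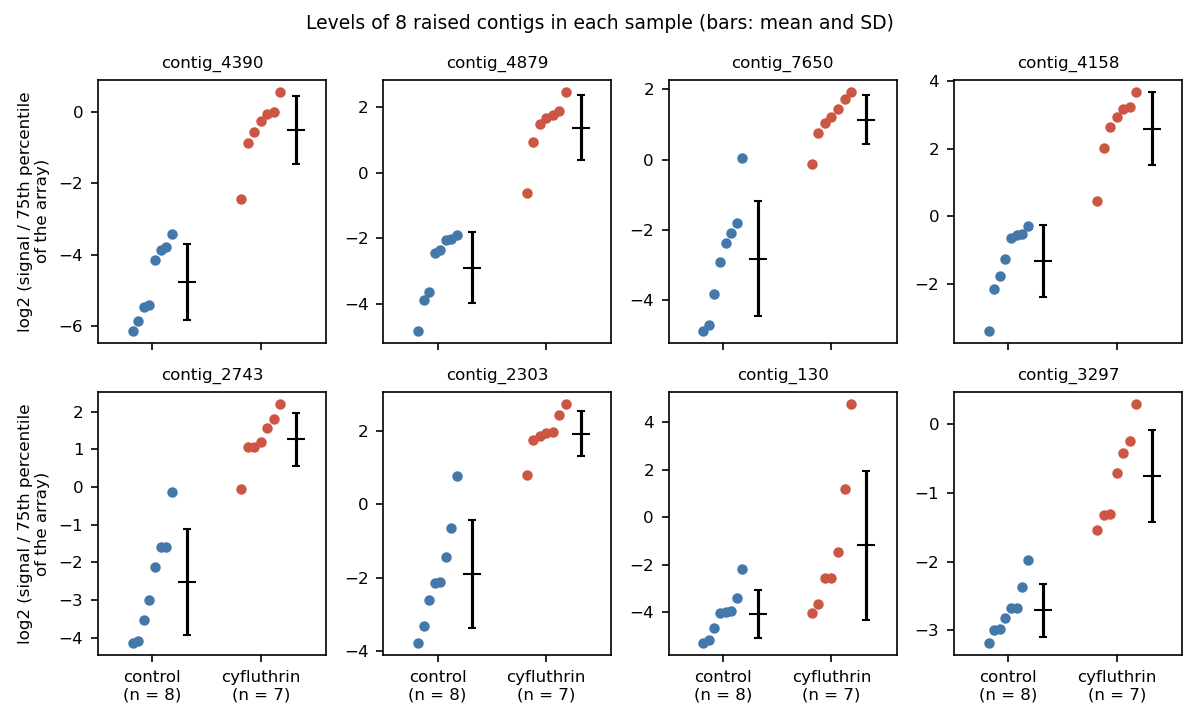
Levels of 8 raised contigs, as log2 of the signal over the 75th percentile of the array, in 8 control samples (blue) and 7 cyfluthrin samples (red), sorted within each group, with the mean and SD in black; each panel has its own vertical scale. The 6 with the widest difference come first, then contig_130, with the largest spread among exposed samples, and contig_3297, with the smallest difference. In contig_7650 the highest control overlaps the exposed samples, and in contig_4879 the groups are 1.29 units apart.

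The threshold of 2 cut through a continuous range. Just inside it were contig_6562, contig_2489 and contig_3297, with value table differences of 2.23, 2.15 and 2.13, and just outside contig_5236, contig_5924 and contig_6287, with 1.96, 1.96 and 1.95. On the level scale these changes were 1.99, 1.64 and 1.96 inside and 1.44, 1.84 and 1.46 outside. The smallest member was among the tightest, since contig_3297 ran from -3.19 over a median of -2.75 to -1.98 in controls and from -1.54 over -0.71 to 0.29 with cyfluthrin. Its groups did not overlap, and its SD over controls, 0.387, was the lowest of the 41.

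All 41 contigs were well above background on all 8 cyfluthrin arrays, as were 86.5% of the tested contigs. In the controls only 17 of the 41 (41.5%) were well above background on all 8 arrays, against 75.6% of those tested, and 9 were so on fewer than 4. Each contig thus passed the filter on its exposed arrays alone. No control array was well above background for contig_6676 and contig_8441, and their changes have only a lower bound. For the bound, each control array counts with the contig's own value or, where that is lower, with the dimmest signal that still cleared background there. It was at least 6.69-fold for contig_6676 and at least 2.34-fold for contig_8441. These bounds hold for the processed signal only, since after normexp correction the log2 changes were 0.081 and -0.30. Measured means were -5.85 and -2.45 for contig_6676 and -6.02 and -3.81 for contig_8441. Next came contig_2046, contig_2433 and contig_2489, each well above background on 1 control array. The first of these had control levels from -6.66 over -5.55 to -4.86 and cyfluthrin levels from -4.34 over -4.001 to -0.30. None of the 41 was saturated on any array.

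The direction of the dimmest contigs was not the same in every processing of the signal. All 41 were higher with cyfluthrin under each of the 5 scalings of the processed signal (75th percentile of all spots or of well detected contigs, median, quantile, and E1A spike-in transcripts) and in the authors' value table, with medians between 3.19 and 3.67. These scalings moved the median change over all tested contigs between -0.16 and 0.31. With normexp correction, which starts from the spot and background signals, models the background and here adds an offset of 50 to each spot, 36 were higher and 5 lower (contig_8441, contig_2046, contig_2433, contig_5085 and contig_2489), each of the 5 well above background on at most 2 control arrays. The 5 lower changes lay between -0.43 and -0.13, and the median change over all tested contigs with normexp was -0.365. The median over the 41 was then 1.235. The widest differences shrank as well, to 1.09 for contig_4390, 2.21 for contig_4879, 2.14 for contig_7650, 2.93 for contig_4158, 1.96 for contig_2743 and 2.44 for contig_2303. For the 17 contigs well above background on every control array the normexp changes ran from 0.599 to 3.23 with a median of 2.03, and for the other 24 the median was 0.562.

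**Figure D3:**
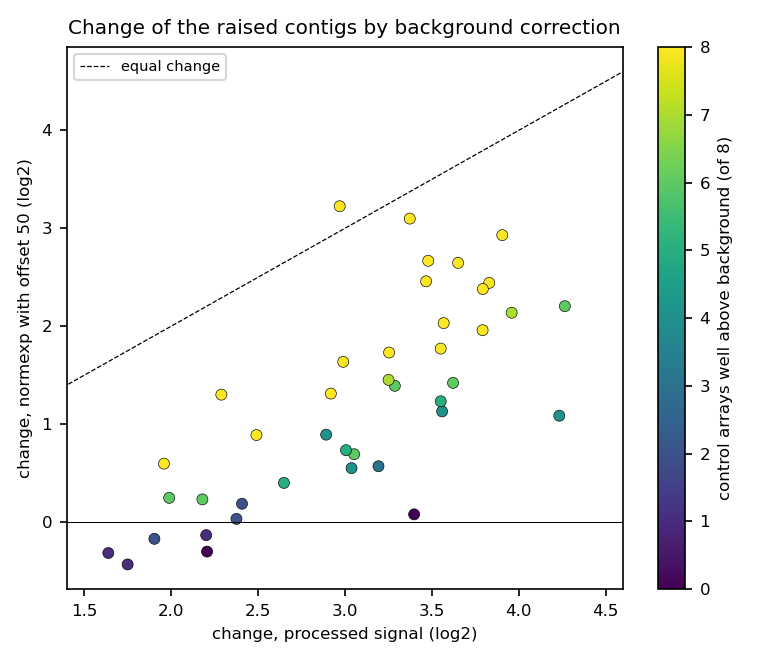
Change of each of the 41 raised contigs (log2, cyfluthrin mean minus control mean) from the processed signal (horizontal) and after normexp correction with an offset of 50 (vertical), coloured by the number of control arrays on which the contig was well above background. Of the 41, 40 points lie below the line of equal change, and the 5 points below 0 are dark, with 2 such control arrays or fewer.

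The 41 contigs varied together beyond the difference between the groups. Each level was reduced by the mean of its own group, and the remaining deviations were correlated over the 15 samples. The median Pearson correlation over the 820 pairs was 0.422, against 0.0184 over all pairs of tested contigs. Within the 8 controls it was 0.407 and within the 7 exposed samples 0.714, against 0.0186 and 0.0268. These correlations share the same arrays and scaling, and the pairs are not independent. The pairs of all tested contigs were not matched to the 41 in spread or direction of change. Cyfluthrin replicate 2 was the lowest exposed sample in 32 of the 41 and so bears on many pairs. Most alike was contig_4158 with contig_4071, at r = 0.994 (Spearman's rho = 0.95) over 15 samples, followed by contig_4158 with contig_2699 at r = 0.988 (rho = 0.968). The first of these pairs had r = 0.99 within the controls and r = 0.999 within the exposed samples. The numbers of the 41 contigs were nowhere consecutive.

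A tree of these correlations, cut at r = 0.6 after the values were seen, gave sets of 15, 13 and 5 contigs and 8 contigs outside them. The sets of 15 and 13 were the same at cuts of 0.7 and 0.75 and merged into 1 at 0.5. The set of 5 held together at 0.5 but split into 2 pieces at 0.7 and 0.75, the larger with 4 contigs. No test was made of sets found in this way. Correlations within them had medians of 0.858, 0.879 and 0.758. Between the first and second set the median was 0.596, and between the third and the others 0.178 and 0.0412.

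Set 1 holds 15 contigs, among them contig_7650, contig_2743 and contig_2303, with changes from 1.91 to 3.96 and a median of 3.48. Relative to the control median, control replicate 1 was 2.09 higher in the median over these contigs, and the highest control in 14 of the 15. Control replicates 6 and 3 were at -1.55 and -1.18, and the other controls lay between -0.44 and 0.60. Among exposed samples the averaged replicates 5 and 6 were the highest in all 15 contigs, at 4.36, and replicate 2 the lowest in all 15, at 2.04. Control replicate 1 was thus as high as the lowest exposed sample, and the groups did not overlap in only 7 of these contigs. Among all tested contigs 1.36% were higher without overlap, but the choice of the 41 favoured separated groups. The spread was wider among controls than among exposed samples, with median SDs of 1.30 and 0.689.

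Set 2 holds 13 contigs, among them contig_4390, contig_4879, contig_4158, contig_4071, contig_2699 and contig_6676, with changes from 2.92 to 4.27 and a median of 3.399. Control replicate 1, high in set 1, was at 0.39 here, near control replicates 2 (0.49), 3 (0.36) and 7 (0.35). Low controls were replicate 6 at -1.86, replicate 4 at -0.95 and replicate 8 at -0.63. Exposed samples again ran from replicate 2, at 1.34 and the lowest in all 13 contigs, to the averaged pair, at 4.21 and the highest in all 13. Replicate 1 was at 2.77 and the rest were between 3.25 and 3.83. No overlap between groups was seen in 10 of the 13, against 1.36% of all tested contigs higher without overlap. As in set 1, the choice of the contigs favoured separated groups, so this count is a description.

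Set 3 holds contig_130, contig_211, contig_1303, contig_2046 and contig_6562, in all of which cyfluthrin replicate 1 was the highest sample. It stood 5.26 above the control median, against 1.04 to 2.56 in the other exposed samples and -0.59 to 0.76 in the controls. The most extreme was contig_130, at 4.74 in cyfluthrin replicate 1 and 1.20 in replicate 4, between -4.02 and -1.45 in the other exposed samples, and between -5.29 and -2.16 in controls. Its SD over exposed samples, 3.13, was the largest of the 41, and its change was 2.89, or 1.91 without cyfluthrin replicate 1. With the slide column as a covariate it was 6.42 or 5.66, by the array that stood for the pair, and that of contig_1303 was 4.91 or 4.21. Cyfluthrin replicates 2, 3, 7 and 8 shared column 3 with no control, so they add nothing to these column estimates. In column 2 cyfluthrin replicate 1 was the only exposed array, and it weighs more in them. Next in spread was contig_1303, with an SD of 2.15. It was at 1.99 in cyfluthrin replicate 1, -0.60 in replicate 4 and between -3.68 and -2.65 in the other exposed samples. The change of contig_1303 fell from 2.41 to 1.71 without replicate 1, and that of contig_2046 from 2.20 to 1.70. Each of the 5 contigs was well above background on at most 6 of the 8 control arrays. Over the 8 controls 0 of the 5 correlated at r = 0.9 or above with the mean of the set, against 5 over the 7 exposed samples. The set was made from these same deviations, and cyfluthrin replicate 1 bears heavily on the correlations over the exposed samples. These counts are therefore a description only. A high cyfluthrin replicate 1 was not particular to this set. It was also the highest exposed sample in most of the 12 contigs that failed the conditions on single samples. Examples are contig_3644 (8.34) and contig_4000 (6.27), and the exceptions were contig_3307, contig_3185 and contig_2115.

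The 8 contigs outside the sets shared no single order of samples. Cyfluthrin replicate 3 was the highest exposed sample in 5 of them (contig_8409, contig_1648, contig_2433, contig_2489 and contig_3297), while contig_8441 was highest in the averaged pair and lowest in replicate 2, like sets 1 and 2, and contig_4326 was highest in replicate 1, like set 3. The smallest spread among exposed samples belonged to contig_8441, with an SD of 0.552, followed by contig_3983 of set 1 with 0.577. The latter is the only one of the 41 in which the near-identical replicates 5 and 6 disagreed by more than 0.5 units, by 1.45.

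**Figure D4:**
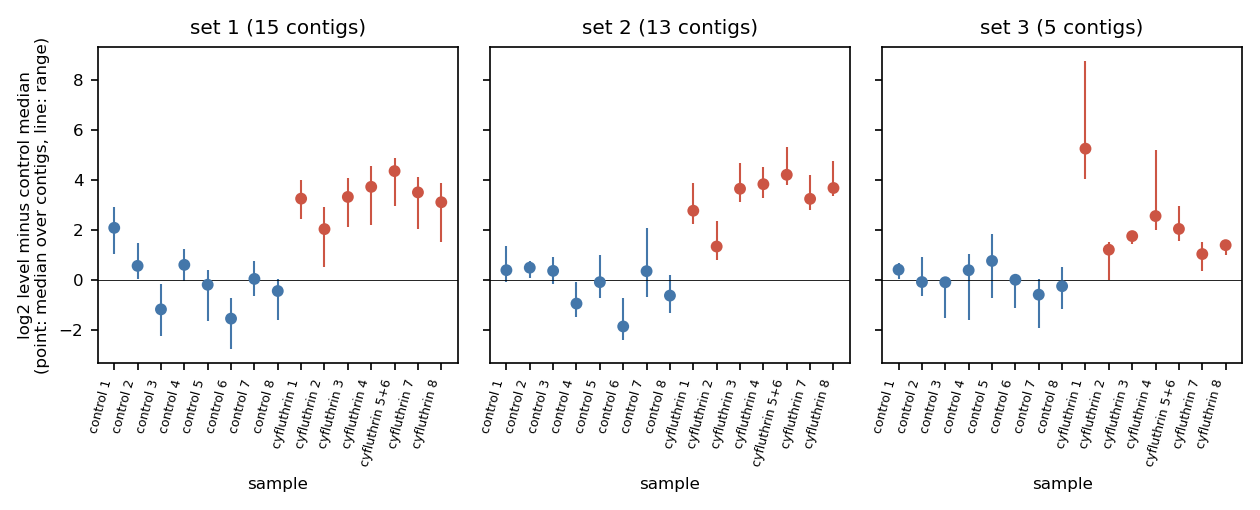
Median (point) and range (line) over the contigs of each set of the log2 level minus the control median of the contig, in 8 control samples (blue) and 7 cyfluthrin samples (red). Control replicate 1 reaches 2.09 in set 1 but 0.39 in set 2, and cyfluthrin replicate 1 reaches 5.26 in set 3.

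Over all 41 contigs, cyfluthrin replicate 2 was the lowest exposed sample in 32, and the averaged pair the highest in 29. The median over the contigs was 1.45 above the control median in replicate 2 and 2.97 to 4.08 in the other exposed samples. Control replicate 6 was the lowest control in 27 contigs, with a median of -1.48, and replicate 1 the highest in 21, with a median of 0.77. The medians over all tested contigs, which the scaling holds near 0, were -0.057 for cyfluthrin replicate 2, -0.013 for control replicate 6 and 0.081 for control replicate 1. With these 3 arrays left out, a choice made after the data were seen, the median change of the 41 contigs was 3.44.

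Spots of 1 array and the near-identical arrays were also compared, which leaves out the differences between samples. In the 34 contigs with at least 2 spots per array the SD between spots had a median of 0.088, against 0.078 over all tested contigs with at least 2. Replicates 5 and 6, on different slides, differed by a median of 0.087 units over the 41 contigs and by 0.129 over all tested contigs. The median SD between samples was 1.01 in controls and 0.862 with cyfluthrin, against 0.433 and 0.362 over all tested contigs. The contigs compared were not matched in signal. Only 41.5% of the 41 were well above background on every control array, against 75.6% of those tested. How far this bears on the SDs was not tested.

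Contigs outside the 41 were also set against the sets. Among the 6811 other tested contigs, 5 had control deviations that correlated at r = 0.9 or above with the mean of set 1 over the 8 controls, a list chosen after the data were seen. They were contig_5488, contig_2022, contig_2494, contig_4753 and contig_4712. None was called higher with cyfluthrin in the limma fit and 1, contig_5488, was called lower (-0.60 ± 0.134, SE, adjusted p = 0.00575), against 7.44% called higher among all tested contigs. Their changes lay between -0.60 and 0.65. For set 2 there were 3 such contigs, with changes from -0.73 to 0.12, of which 0 were called. For set 3 there were 49, of which 3 (6.12%) were called higher and 0 lower. Of the members themselves, 14 of 15, 7 of 13 and 0 of 5 reached that correlation with their own set in the controls. The sets were made from these same deviations, so the counts of members cannot be set beside those of other contigs. Over the 7 exposed samples 19, 34 and 114 other contigs reached it. Of these 0, 5 and 1 were called higher (0%, 14.7% and 0.877%) and 2, 4 and 9 lower. Among all 6852 tested contigs 510 (7.44%) were called higher and 1542 lower. Over so few samples a correlation of this size is a description.

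The change was also read on each slide. These values come from the samples that chose the contigs, so their direction and size are a description, and only the difference between the slides was not used in the choice. On slide 1, with 4 arrays a group, the median change of the 41 contigs was 2.68, with a range from 0.907 to 3.79. On slide 2 it was 3.995, with a range from 1.82 to 5.06. The groups did not overlap in 22 of the 41 on slide 1 and in 40, all except contig_1648, on slide 2. Over all tested contigs the shares higher without overlap were 3.63% and 8.77%. The median change over all tested contigs was -0.21 on slide 1 and -0.13 on slide 2.

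In a limma fit of the difference between slides, with replicate 5 standing for the pair, the change was larger on slide 2 in 39 of the 41 contigs, by a median of 1.21, against 0.063 over all tested contigs. No contig passed the Benjamini-Hochberg adjusted threshold (0% of 6852), and the lowest adjusted p among the 41 was 0.993. At an unadjusted p below 0.05 there were 3 of the 41, against 4.09% of all tested contigs, and leaving out 1 array moved this count between 1 (without control replicate 3 or 6 or cyfluthrin replicate 3) and 10 (without cyfluthrin replicate 5, and so without the pair). Over all 6852 tested contigs the count with 1 array left out lay between 186 (without cyfluthrin replicate 3) and 437 (without control replicate 7). With quantile normalization 1 of the 41 had an unadjusted p below 0.05, against 3.31% of all tested contigs. With replicate 6 standing for the pair the median was 1.75 and 13 of the 41 had an unadjusted p below 0.05, against 3.21%, and again no contig passed after adjustment. With replicate 5, contig_2433 at 1.82 ± 0.514 (SE) and contig_3297 at 1.12 ± 0.456 (SE) were lowest in unadjusted p, both with a limma adjusted p of 0.993. With replicate 6 these differences were 1.67 ± 0.548 and 0.656 ± 0.538 (SE), and the lowest was contig_7113, at 2.16 ± 0.635 (SE) with a limma adjusted p of 0.997. Because the contigs vary together, these counts do not rest on independent contigs.

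The samples that stood apart also lay on particular slides. Control replicate 1 and cyfluthrin replicate 2 were on slide 1 and control replicate 6 on slide 2. The median difference between slides was 0.922 without control replicate 1, 0.814 without control replicate 6 and 0.728 without cyfluthrin replicate 2. Within the controls the 41 contigs were lower on slide 2 in 39 cases, with a median difference of -0.67, against -0.068 over all tested contigs. No contig differed between slides within the controls after adjustment in limma (0% of 6852). At an unadjusted p below 0.05 there were 8 of the 41, 6 of them in set 1, against 3.87% of all tested contigs. With quantile normalization 2 of the 41 did so, against 2.55% of all tested contigs.

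**Figure D5:**
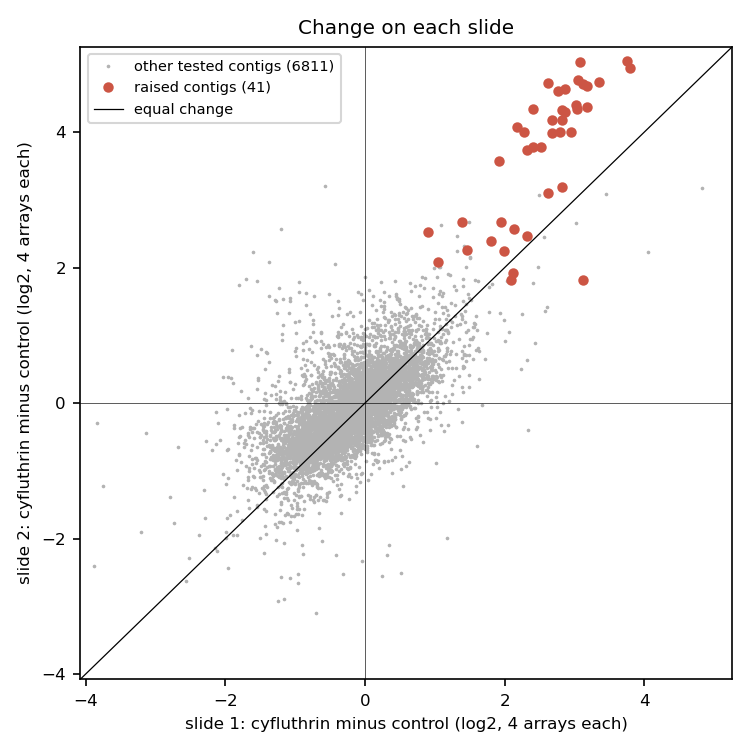
Change of every tested contig (log2, cyfluthrin mean minus control mean) on slide 1 (horizontal) and slide 2 (vertical), each from 4 control and 4 cyfluthrin arrays. The 41 raised contigs (red) lie above 0 on both slides and mostly above the line of equal change, with medians of 2.68 and 3.995.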

How the data were processed

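The scanner's intensity values were made by the authors with Agilent Feature Extraction, version 11.5.1.1 per the file headers and 9.1 per the submitters' processing notes. The deposited processed signal is background-subtracted within each array and not scaled between arrays. The authors' value table holds deposited log2 values, centred on each probe's median over the arrays. These were close to quantile-normalized scanner values, with correlations of at least 0.99996 in each column and column medians from -0.11 to 0.12. Scale and centring were read from that comparison and are not stated. Other deposited columns used were the flags for background, saturation and outliers, and the slide position per the file headers.

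Of 15744 spots per array, 536 control spots and outlier spots were left out, log2 signals were reduced by each array's 75th percentile, and replicate spots were averaged per probe. A contig was well above background where at least 50% of its spots were. The 2 groups were compared with limma 3.58.1 in R 4.3.3 (lmFit and eBayes, Benjamini-Hochberg adjustment over 6852 contigs), after tests on simulated data; figures were drawn with matplotlib 3.10.9. The number of arrays limits the precision. For normexp, the inputs were each spot's median signal and its median background. The submitters' names for the data of cyfluthrin replicates 5 and 6 carry the same sample number.

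The contigs, lists and tests were chosen with earlier results of these data known. Contigs are named for the 6 widest and 3 narrowest differences, the 3 just outside the threshold, the largest and smallest spread among exposed samples, the fewest control arrays well above background, the lowest p of the slide difference and the 2 most alike pairs. Lists of detoxification, stress, nerve and other genes could not be matched to contigs. Replicate numbers are shared between the groups, but the deviations of same-numbered samples correlated between -0.673 and 0.471, so they were not treated as pairs.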

Additional observations from a re-analysis of the deposited data

Results flagged for a closer look

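In 44 sets of values (the named contigs, the sets of contigs and all 41, within each group), a sample far from the rest of its group was found in 8. In independent sets the cutoff would mark about 1 in 20 by chance. The 44 share samples and contigs, and some were chosen by their spread or from the same deviations. The count of 8 can therefore not be read against that rate. Over all 41 contigs, control replicate 6 had a median of -1.48, while the remaining controls lay between -0.27 and 0.77, and cyfluthrin replicate 2 one of 1.45, against 2.97 to 4.08 in the other exposed samples. For set 3 the median was 5.26 in cyfluthrin replicate 1, against 1.04 to 2.56.

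Single contigs were marked in 5 cases. Cyfluthrin replicate 1 was at 0.71 for contig_6562, against -2.33 to -1.33 in the other exposed samples, and at -0.30 for contig_2046, against -4.34 to -2.99. Cyfluthrin replicate 2 was at -4.74 for contig_6676, against -2.74 to -1.61. Control replicate 6 was at -6.66 for contig_2046, against -5.64 to -4.86 in the other controls. Control replicate 5 was at -4.22 for contig_2433, against -6.43 to -5.41.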

How the results depend on the processing

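The rule found 35 contigs on scanner values scaled to the 75th percentile, 40 with median scaling, 41 with quantile normalization and 56 with E1A scaling. It found 11 with normexp, 17 when all 16 arrays had to be well above background, and 63 with a difference of at least 1.5. Leaving out 1 array gave 41 to 49. The median change over the 41 contigs was 1.235 with normexp and 3.995 on slide 2 alone, and 2.97 to 3.49 without single arrays. Over all tested contigs normexp called 3643, the slide column as a covariate 1136 or 739, and the replicate block 949 or 973, by the array that stood for the pair. Leaving out 1 array gave 1525 to 2109. Higher against lower calls split 510 to 1542 at the 75th percentile and 718 to 724 at the median. Quantile normalization gave 583 to 838, and the E1A spike-ins 1400 to 153. With the replicate block the median change of the 41 contigs was 2.96 or 3.28, and with the column 3.75 or 3.64. Only cyfluthrin arrays stood in column 3 of the slides. Both slide tests called 0 contigs in each setting run.

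Of 714 values for 21 named contigs under other settings, 681 moved by less than the spread between samples, 27 moved by more and 6 reversed, all 6 with normexp. These were contig_2489 (-0.31), contig_5236 (-0.45), contig_6287 (-0.38), contig_8441 (-0.30), contig_2046 (-0.13) and contig_2433 (-0.43). Over all tested contigs the median change with normexp was -0.365. The yardstick was the SD between single samples, pooled over the groups, which contigs with a wide spread rarely exceed. The change of contig_130 is thus among the 681, although normexp took it from 2.89 to 0.895. Many settings only left out 1 array. The offset was added before scaling, and the unscaled signal was higher with cyfluthrin; whether this accounts for the reversals was not tested.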
